A study of Mus musculus with 9 samples.

Results

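The expression of 6 genes of the angiopoietin, Tie and VE-PTP system was examined in mouse retina with and without oxygen-induced retinopathy (OIR). The genes are Angpt1, Angpt2, Angptl4, Tek, Tie1 and Ptprb, and they were taken by name from a table of 54532 genes. All 6 were among the 17540 genes that passed the filter on low counts. In the OIR model, pups kept in hyperoxia lose part of their retinal vessels, and the ischemia that follows their return to room air drives retinal NV. Bulk RNA sequencing was available for the retina of 9 wild type mice of the C57BL/6 strain, taken at P17 and divided into 3 groups of 3. Control mice were raised in room air, and their labels give DMSO, which the study's methods do not mention for them. OIR mice received DMSO, the vehicle, at P12. Treated OIR mice received 1 intraocular injection at P12 of a small molecule that inhibits HIF-1 and HIF-2, the hypoxia-inducible factors. This inhibitor is a thiazole with a 6-bromo-indolyl and a 7-bromo-indolyl group, and its code name is given on the plots. The dose is given as 70 ng in 1 label and as 70 ng/µl in another. Mice are named by their label numbers (control mice 1, 6 and 7, then OIR mice 3, 5 and 6, then treated OIR mice 2, 5 and 10), which do not pair mice across groups, and values by mouse are listed in this order.

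Angpt1 encodes angiopoietin-1, which is made by perivascular and other cells and activates Tie2, the receptor tyrosine kinase encoded by Tek on endothelial cells. Active Tie2 signals through AKT, keeps the transcription factor FOXO1 out of the nucleus and stabilizes vessels, whereas angiopoietin-2, encoded by Angpt2 in endothelial cells and some neurons, can block this signal and is known for its rise in ischemic retina. Tie1 is the related receptor that pairs with Tie2 and has no well established ligand of its own. Ptprb encodes VE-PTP, the endothelial phosphatase that removes phosphate from Tie2 and from VE-cadherin complexes. Angptl4 encodes angiopoietin-like 4, a secreted inhibitor of lipoprotein lipase that does not bind the Tie receptors and is a known target of HIF and PPAR factors.

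Total counts ranged from 16864135 to 27213184 in control, from 18556723 to 21071371 in OIR and from 16028731 to 18560178 in treated OIR mice. A pair of libraries stood apart. In treated OIR mouse 2 crystallin genes held 15.8% of the counts, compared with at most 0.186% in any other mouse. The mean log2 CPM of 6 retinal ganglion cell markers was 1.99 in that mouse and 3.43 in OIR mouse 6, and between 5.21 and 7.48 in the other 7. The mean of 15 endothelial markers was 2.49 and 2.18 in these 2 mice and between 3.41 and 4.16 in the others. The 6 rod photoreceptor markers were high in every mouse, with group means from 11.9 to 12.0 on the log2 CPM scale. By Xist and Y-linked counts, the female mice were numbers 2 and 5 of treated OIR, number 3 of OIR and number 1 of control.

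All 6 genes are protein coding, and their positions are given on GRCm38 as in the deposited table. Angpt1 (ENSMUSG00000022309) lies on the minus strand of chromosome 15 from 42424723 to 42676977, and Angptl4 (ENSMUSG00000002289) on the minus strand of chromosome 17 from 33773750 to 33781575. Tek (ENSMUSG00000006386) lies on the plus strand of chromosome 4 from 94739289 to 94874976, and Tie1 (ENSMUSG00000033191) on the minus strand of the same chromosome from 118471191 to 118490061. Ptprb (ENSMUSG00000020154) lies on the plus strand of chromosome 10 from 116275523 to 116389535. Angpt2 (ENSMUSG00000031465) lies on the minus strand of chromosome 8 from 18690263 to 18741562, wholly inside Mcph1, a gene of the plus strand that spans 18595131 to 18803189. Whether counting used strand is not given in the sources used here, so reads of Angpt2 and of Mcph1 may not be fully separated. Angpt1 overlaps the antisense gene Gm17473, which had 0 counts in all mice, and Ptprb overlaps Gm47625, with 0 counts, and the snoRNA Gm26495, with 0 to 4 counts.

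Promoter sequence from RefSeq was available for 2 of the 6 genes, Tek and Tie1. The 250 bases before the start of Tek (chr4:94739039-94739288, plus strand, GRCm38) are shown because Tek and the endothelial markers moved together between mice, and ETS factors are known regulators of endothelial genes. Capitals mark the ETS core GGAA, read on either strand, which occurs in the printed strand as its reverse complement TTCC.

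Tek: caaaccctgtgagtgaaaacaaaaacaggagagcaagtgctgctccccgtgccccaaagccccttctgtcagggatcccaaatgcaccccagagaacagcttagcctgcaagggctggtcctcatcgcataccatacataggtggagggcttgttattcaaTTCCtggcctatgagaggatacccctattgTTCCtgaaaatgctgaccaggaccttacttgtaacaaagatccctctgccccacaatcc

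The core was found 2 times in this window and 7 times in the window of the same length before Tie1. Among all 32851 windows of this length, 93.4% held the core, the median was 3 and 3.82% held at least 7. The HIF core ACGTG, which is present in 16.6% of all windows, and its other form GCGTG, present in 28.2%, were searched on both strands and found in neither window. The FOXO core GTAAACA, present in 3.17% of all windows, was also found in neither. These matches describe letters in a short window and say nothing about binding.

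Of the 6 genes, 0 had an adjusted p below 0.05 in any of the 3 comparisons in edgeR's quasi-likelihood test with Benjamini-Hochberg adjustment over all 17540 genes. Across all genes tested, 0.941% passed this threshold between OIR and control mice, 0.0228% between treated OIR and control mice and 0% between treated OIR and OIR mice. An unadjusted p below 0.05 was reached by 1 of the 6 genes between OIR and control (23.8% of all genes), by 4 of 6 between treated OIR and control (18.6%) and by 0 of 6 between treated OIR and OIR (4.69%). With other tools 1 member, Angpt1, passed between OIR and control mice and up to 2, Angpt2 and Angptl4, passed between treated OIR and control mice, as given below for each gene. These tools called more genes in general. Between OIR and control mice DESeq2 called 13.5% of the genes to which it gave an adjusted p on all 9 mice and 16.2% on the 2 groups alone, and limma voom called 13.1%. Between treated OIR and control mice the shares were 5.47%, 2.38% and 5.28%. The values below are therefore descriptions of levels in 3 mice per group, and every p sets a group difference against the spread between separate mice. In bulk retina, fewer cells of a type and less RNA per cell cannot be told apart.

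**Figure D1:**
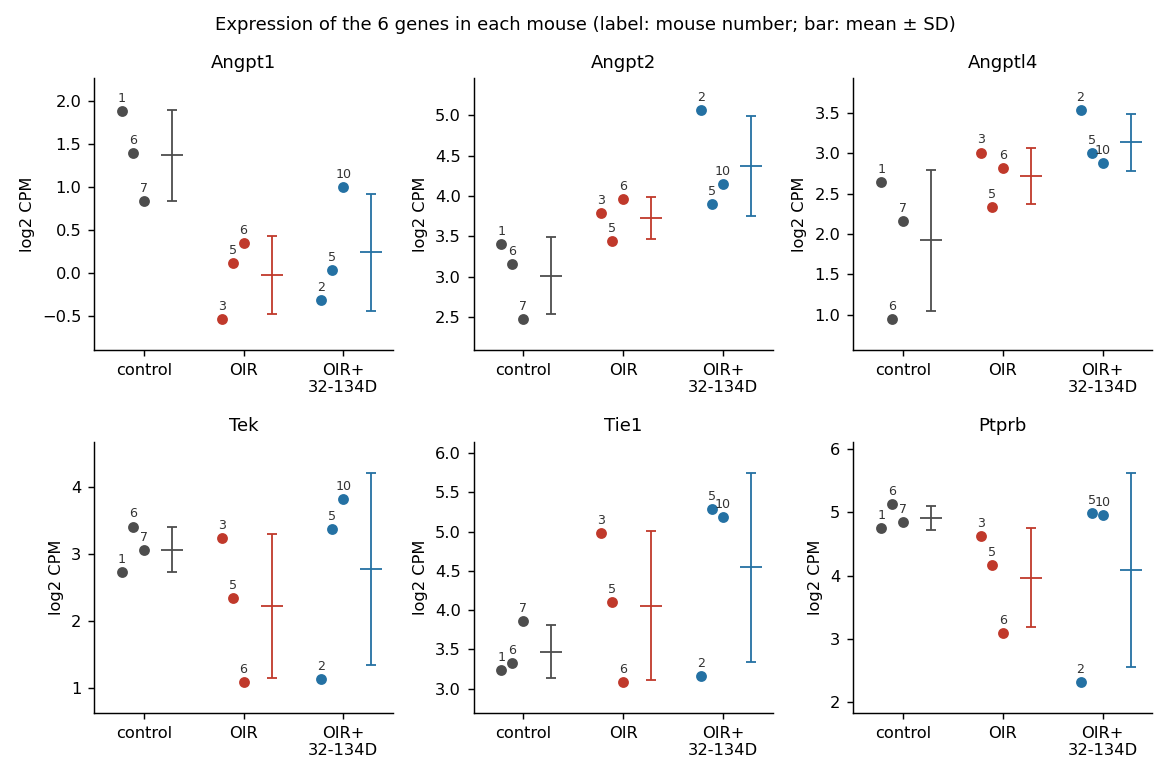
Log2 CPM of each gene (vertical axis, a separate scale for each gene) in each of the 9 mice, with the mouse number beside the point and the group mean ± SD (n = 3) as a bar. Angpt1 is lower and Angpt2 higher in all 3 OIR mice than in all 3 control mice, and Tek, Tie1 and Ptprb are low in OIR mouse 6 and treated OIR mouse 2.

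The ligand Angpt1 was the least abundant of the 6 genes and the one with the largest difference between OIR and control mice. It had 103, 51 and 26 counts in control, 11, 21 and 26 counts in OIR and 11, 15 and 37 counts in treated OIR mice. On the log2 CPM scale these were 1.89, 1.39 and 0.83 in control, -0.54, 0.11 and 0.35 in OIR, and -0.32, 0.03 and 1.002 in treated OIR mice. All 3 OIR mice lay below all 3 control mice, whereas treated OIR mouse 10 lay within the control range. Between OIR and control mice 17.2% of all genes were lower without overlap, so that this separation alone was common. The log2 fold change was -1.51 between OIR and control (standard error 0.48, 95% interval -2.59 to -0.43, edgeR adjusted p = 0.115). DESeq2 gave a log2 fold change of -1.53 with an adjusted p of 0.0413 on all 9 mice and 0.0313 on the 2 groups alone, and limma voom gave -1.53 with an adjusted p of 0.0456. The edgeR value ranged from -1.74 to -1.20 when each mouse was left out. In treated OIR compared with control mice it was -1.14 (standard error 0.48, edgeR adjusted p = 0.247), and -1.68 to -0.83 when each mouse was left out.

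Angpt2, the context-dependent antagonist, ran the other way. It had 301, 178 and 85 counts in control, 256, 231 and 344 counts in OIR and 527, 242 and 342 counts in treated OIR mice. The log2 CPM was 3.41, 3.16 and 2.48 in control, 3.79, 3.44 and 3.96 in OIR, and 5.07, 3.90 and 4.14 in treated OIR mice. Each OIR and treated OIR mouse lay above each control mouse, the closest pair being OIR mouse 5 and control mouse 1. Of all genes, 15.9% were higher without overlap in OIR than in control mice and 12.8% in treated OIR than in control mice. The log2 fold change against control was 0.68 in OIR mice (standard error 0.34, 95% interval -0.09 to 1.45, edgeR adjusted p = 0.260) and 1.40 in treated OIR mice (standard error 0.34, 95% interval 0.62 to 2.18, edgeR adjusted p = 0.126). The second of these passed with DESeq2 on all 9 mice (1.39, adjusted p = 0.00606), with DESeq2 on the 2 groups (1.39, adjusted p = 0.0254) and with limma voom (0.94, adjusted p = 0.0491). Treated OIR mouse 2, the library with lens transcripts, held the highest value, and without it the log2 fold change of treated OIR mice was 0.96 (edgeR adjusted p = 0.204).

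Set directly against OIR mice, treated OIR mice had a higher Angpt2 level, by 0.72 on the log2 scale (standard error 0.34, 95% interval -0.04 to 1.48, edgeR adjusted p = 0.9998), and by 0.31 without treated OIR mouse 2. The groups overlapped, since OIR mouse 6 lay above treated OIR mouse 5. Mcph1, which encodes microcephalin and surrounds Angpt2 on the opposite strand, had 52 to 158 counts per mouse. The log2 ratio of Angpt2 to Mcph1 counts ran from 0.71 to 1.02 among control, from 0.97 to 1.57 among OIR and from 1.49 to 2.23 among treated OIR mice, so the ratio ordered the groups in the way that Angpt2 did, with overlap of each neighbouring pair in that order.

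Angptl4 had 177, 37 and 68 counts in control, 149, 106 and 155 counts in OIR and 182, 129 and 141 counts in treated OIR mice. The log2 CPM was 2.65, 0.95 and 2.17 in control, 3.01, 2.33 and 2.82 in OIR, and 3.54, 3.002 and 2.88 in treated OIR mice. Control mouse 6 was low, and control mouse 1 lay above OIR mouse 5 but below all 3 treated OIR mice. The log2 fold change against control was 0.67 in OIR mice (standard error 0.41, edgeR adjusted p = 0.348). It was 0.32 without control mouse 6, 1.10 without control mouse 1 and 1.27 with limma voom (adjusted p = 0.0575). It was 1.10 after treatment (standard error 0.41, 95% interval 0.17 to 2.03, edgeR adjusted p = 0.220). Limma voom, which weights libraries by quality, gave 1.57 for treated OIR mice, with an adjusted p of 0.0417. Treated OIR differed from OIR mice by 0.42 (95% interval -0.49 to 1.34, edgeR adjusted p = 0.9998), and by 0.22 without treated OIR mouse 2 or with sex as a covariate and 0.25 without OIR mouse 5.

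**Figure D2:**
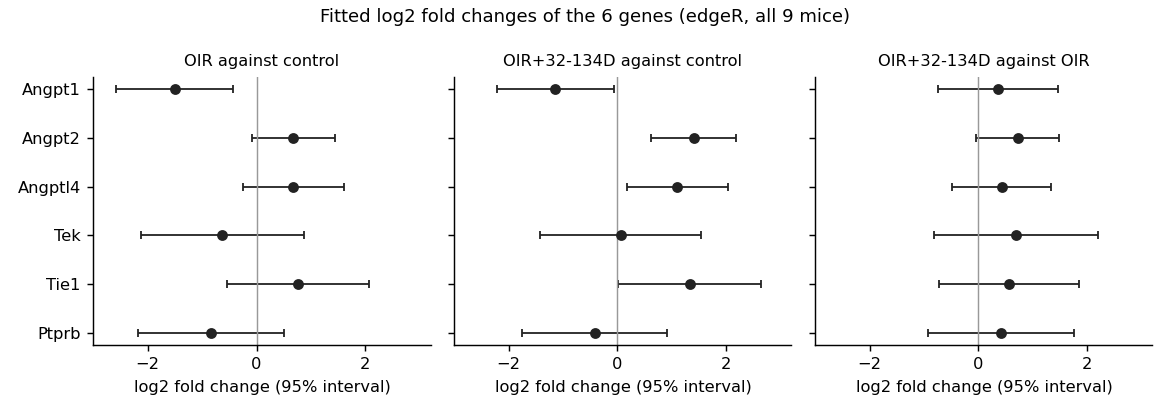
Log2 fold changes (horizontal axis) of the 6 genes from the edgeR fit of all 9 mice, with 95% intervals as bars, in the 3 comparisons. In OIR compared with control mice the interval lies wholly below 0 for Angpt1 and includes 0 for the other genes. In treated OIR compared with control mice it lies below 0 for Angpt1 and above 0 for Angpt2, Angptl4 and Tie1. In the direct comparison of treated OIR with OIR mice all 6 values are above 0 with intervals that include 0. The intervals are not adjusted for the number of genes tested.

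The receptors and the phosphatase were set apart by OIR mouse 6 and treated OIR mouse 2. Tek had 186, 212 and 128 counts in control, 174, 107 and 45 counts in OIR and 33, 166 and 271 counts in treated OIR mice. The log2 CPM of Tek was 2.72, 3.41 and 3.06 in control, 3.23, 2.35 and 1.09 in OIR, and 1.13, 3.36 and 3.81 in treated OIR mice. The control mice were within 1 log2 unit of each other, whereas the OIR and treated OIR groups each held both a value inside the control range or above it and a value far below it. The log2 fold change against control was -0.63 in OIR mice (standard error 0.66, edgeR adjusted p = 0.603). It was 0.06 for treated OIR mice (standard error 0.66, edgeR adjusted p = 0.970). The first was -0.24 without OIR mouse 6 and -1.26 without OIR mouse 3. The second was 0.53 without treated OIR mouse 2 and 0.25 without control mouse 6. The sign of the second also turned with single mice, to -0.10 without control mouse 1, -0.06 without treated OIR mouse 5 and -0.45 without treated OIR mouse 10.

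Ptprb had 771, 703 and 445 counts in control, 458, 385 and 188 counts in OIR and 77, 515 and 602 counts in treated OIR mice. The log2 CPM was 4.76, 5.13 and 4.85 in control, 4.62, 4.17 and 3.10 in OIR, and 2.32, 4.99 and 4.96 in treated OIR mice. Every OIR mouse lay below every control mouse, OIR mouse 3 by a small margin, while treated OIR mice 5 and 10 lay within the control range. The log2 fold change against control was -0.83 in OIR mice (standard error 0.59, 95% interval -2.17 to 0.51, edgeR adjusted p = 0.428), -0.51 without OIR mouse 6 and -1.19 without OIR mouse 3. In treated OIR compared with control mice it was -0.42 (standard error 0.59, edgeR adjusted p = 0.724). This value was 0.06 without treated OIR mouse 2, -0.75 without treated OIR mouse 5, -0.72 without treated OIR mouse 10 and -0.19 with limma voom.

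Tie1 had 266, 200 and 223 counts in control, 590, 366 and 186 counts in OIR and 139, 634 and 708 counts in treated OIR mice. The log2 CPM was 3.23, 3.32 and 3.86 in control, 4.98, 4.10 and 3.08 in OIR, and 3.16, 5.28 and 5.19 in treated OIR mice. Thus 2 mice of each OIR group lay above all control mice, and the exceptions were again OIR mouse 6 and treated OIR mouse 2, which lay just below the lowest control mouse. The log2 fold change against control was 0.76 in OIR mice (standard error 0.58, edgeR adjusted p = 0.455). It was 1.33 for treated OIR mice (standard error 0.58, 95% interval 0.01 to 2.64, edgeR adjusted p = 0.265). The first was 0.19 without OIR mouse 3 (edgeR adjusted p = 0.883) and 1.12 without OIR mouse 6 (edgeR adjusted p = 0.362). The second was 1.02 without treated OIR mouse 5 (edgeR adjusted p = 0.454) and 1.77 without treated OIR mouse 2 (edgeR adjusted p = 0.162).

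In the direct comparison of treated OIR with OIR mice, the log2 fold changes of Tek, Tie1 and Ptprb were 0.69, 0.56 and 0.41, and that of Angpt1 was 0.37, each with an edgeR adjusted p of 0.9998. All 6 genes had a higher fitted level in treated OIR mice, with a median log2 fold change of 0.49 compared with 0.01 over all genes tested. The shared direction was not particular to them. Of the 15 endothelial markers 14 were higher and 1 lower (median 0.44), and all 6 retinal ganglion cell markers were higher (median 0.98). All 6 microglia and macrophage markers were lower (median -1.16). Of the 6 genes, 0 were separated without overlap, where 3.74% of all genes were higher and 5.39% lower without overlap. Without treated OIR mouse 2 the values of Tek, Tie1 and Ptprb were 1.18, 1.01 and 0.91, and their edgeR adjusted p were 0.351, 0.351 and 0.299. Without OIR mouse 3 they were 1.32, 1.15 and 0.77, and with limma voom 1.09, 1.02 and 0.80. Without OIR mouse 6 the same 3 values were 0.29, 0.21 and 0.08. Without treated OIR mouse 10 they were 0.18, 0.33 and 0.11, and without treated OIR mouse 5 they were 0.57, 0.25 and 0.08. The value of Angpt1 had the other sign without treated OIR mouse 10, at -0.18, and was 0.14 without OIR mouse 3, 0.58 without OIR mouse 6 and 0.66 without treated OIR mouse 2. The intervals from the fit of all 9 mice ran from -0.81 to 2.19 for Tek and from -0.93 to 1.75 for Ptprb. Differences of more than 1 log2 unit thus lay within them.

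Sex was not balanced between the groups. Between OIR and control mice, the difference in log2 CPM of Angpt1 was -2.42 in the female pair and -0.88 between the 2 male mice of each group, and that of Angpt2 was 0.38 and 0.88. Angptl4 was higher by 0.36 in the female pair and by 1.02 in males, and Ptprb differed by -0.14 and -1.35. These 4 genes kept 1 direction in both sexes. For Tek the difference was 0.51 in females and -1.52 in males, and for Tie1 it was 1.75 in females and near 0 in males, at 0.002. OIR mouse 6 is male. In treated OIR compared with control mice, 2 females were set against 1 and 1 male against 2. The signs were the same in both sexes for 5 of the 6 genes and differed for Tek, at -0.47 in females and 0.58 in males. For 2 of these 5 genes the male value was near 0. Angpt1 differed by -2.03 in females and -0.11 in males, and Ptprb by -1.10 and -0.03. In the direct comparison they were opposite for Tek, Tie1 and Ptprb, with differences of -0.99, -0.76 and -0.97 in females, treated OIR mouse 2 included, and of 2.09, 1.60 and 1.32 in males.

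To compare levels between genes, levels per gene length (TPM) were computed with the deposited lengths. In control mice Angpt2 (7.50 ± 2.74, SD, n = 3), Ptprb (7.48 ± 1.38), Tie1 (7.41 ± 1.20), Tek (5.90 ± 1.59) and Angptl4 (4.13 ± 2.27) followed in that order and Angpt1 was lowest at 1.67 ± 0.70, with ranges that overlapped between all neighbours. In OIR mice the order was Tie1 (13.9 ± 8.34), Angpt2 (13.0 ± 2.25), Angptl4 (7.27 ± 1.58), Ptprb (4.59 ± 2.13), Tek (4.15 ± 2.73) and Angpt1 (0.636 ± 0.213). In treated OIR mice it was Tie1 (19.7 ± 13.5), Angpt2 (17.4 ± 3.27), Angptl4 (8.18 ± 0.217), Tek (6.50 ± 5.04), Ptprb (5.90 ± 4.39) and Angpt1 (0.758 ± 0.537). Among these neighbours, the ones with ranges that did not overlap were Angpt2 and Angptl4 with or without treatment, and Tek and Angpt1 in OIR mice. TPM are shares of a library, so the values of treated OIR mouse 2 are lower by the share of TPM that its crystallin genes took. That share was not computed and can differ from their share of counts, because TPM divides by gene length.

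The ratio of the antagonist to the agonist ligand was more uniform within the control group than either gene. Per gene length, Angpt2 exceeded Angpt1 by 4.12, 4.92 and 4.61 times in control, by 32.8, 15.5 and 18.7 times in OIR and by 67.6, 22.8 and 13.0 times in treated OIR mice. Every OIR and treated OIR mouse lay above the control mice, and the OIR and treated OIR ranges overlapped. The mean log2 ratio was 2.18 ± 0.13 (SD, n = 3) in control mice, and 4.40 ± 0.56 and 4.76 ± 1.21 in OIR and treated OIR mice. The difference from control was 2.22 on the log2 scale in OIR mice, or 4.67-fold, and 1.91 to 2.45 when each mouse was left out. It was 2.58 in treated OIR mice and 1.92 without mouse 2. Because Angpt1 was itself low, 74.6% of all genes had a ratio to Angpt1 that was higher without overlap in OIR than in control mice and 29.2% did in treated OIR than in control mice, so that the separation is not particular to Angpt2. The ratio rested on as few as 11 counts of Angpt1 in OIR mouse 3 and treated OIR mouse 2.

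**Figure D3:**
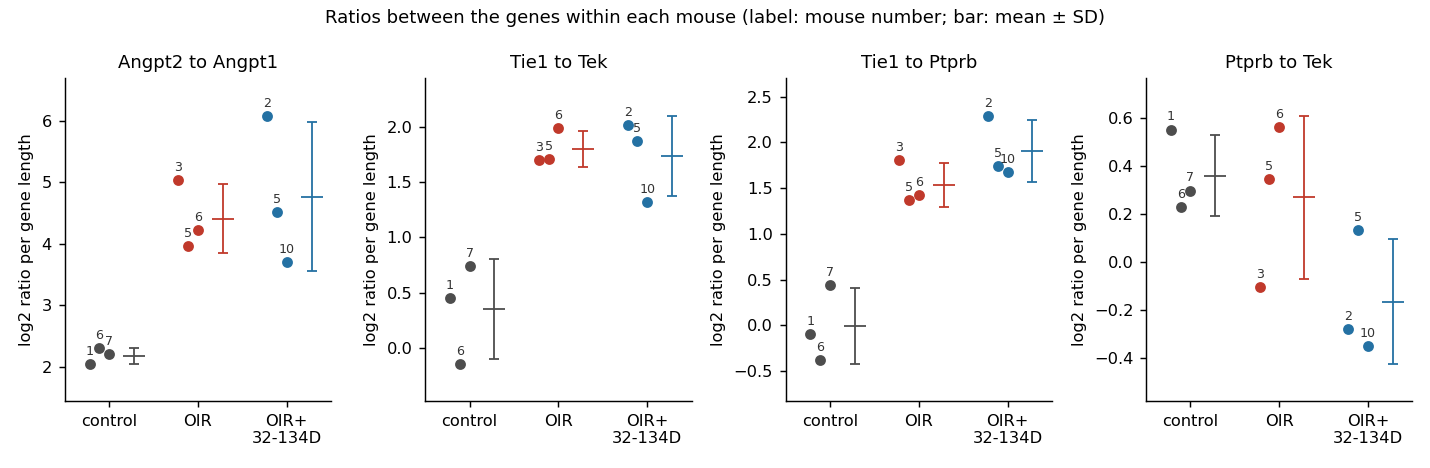
Log2 ratios per gene length (vertical axes) of Angpt2 to Angpt1, Tie1 to Tek, Tie1 to Ptprb and Ptprb to Tek in each mouse, with the mouse number beside the point and the group mean ± SD (n = 3) as a bar. In the first 3 ratios all OIR and treated OIR mice lie above all control mice, also OIR mouse 6 and treated OIR mouse 2, and in the last the treated OIR mice lie below the control mice.

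The receptors did not keep a fixed ratio to each other. Per gene length, the ratio of Tie1 to Tek was 1.37, 0.904 and 1.67 in control, then 3.25, 3.28 and 3.96 in OIR and 4.04, 3.66 and 2.50 in treated OIR mice. Each OIR and treated OIR mouse lay above all control mice, including the pair of mice with low endothelial markers. The mean log2 ratio was higher than in control by 1.45 in OIR mice, or 2.73-fold, and by 1.39 in treated OIR mice, or 2.61-fold, with group SDs of 0.45, 0.16 and 0.36 (n = 3 each). Of all genes, 9.69% had a ratio to Tek that was higher without overlap in OIR than in control mice, and 1.06% in treated OIR than in control mice. Treated OIR mice differed from OIR mice by -0.06, and its sign turned when single mice were left out. This ratio, those with Ptprb below and the levels relative to endothelial markers were chosen after the values had been seen, so they are given without a test.

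Tie1 to Ptprb, the receptor relative to the phosphatase, was 0.936, 0.771 and 1.36 in control, then 3.49, 2.58 and 2.68 in OIR and 4.89, 3.34 and 3.19 in treated OIR mice. The groups with OIR did not overlap with control, at 2.91-fold in OIR and 3.76-fold in treated OIR mice, and 47.9% and 11.3% of all genes had a ratio to Ptprb that was higher without overlap in these comparisons. Ptprb to Tek was 1.46, 1.17 and 1.23 in control, 0.930, 1.27 and 1.48 in OIR and 0.825, 1.10 and 0.785 in treated OIR mice. It overlapped between OIR and control, where its difference of -0.09 turned sign without control mouse 1 or OIR mouse 3, and was lower without overlap in treated OIR than in control mice, by -0.52 on the log2 scale, where 2.78% of all genes had a ratio to Tek that was lower without overlap. Angpt2 to Tek differed from control by 1.58 in OIR and 1.68 in treated OIR mice on the log2 scale and overlapped between groups in both. The first value was 0.88 without OIR mouse 6, and the second was 0.49 without treated OIR mouse 2, with ranges of 0.88 to 2.07 and of 0.49 to 2.32 when each mouse was left out.

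The endothelial markers moved with Tek and Ptprb from mouse to mouse. Over the 9 mice, the Pearson correlation with the mean of the 15 endothelial markers was 0.96 for Tek, 0.92 for Ptprb and 0.72 for Tie1, and it was 0.94, 0.93 and 0.68 over the 8 mice without treated OIR mouse 2. For the secreted factors Angpt1, Angpt2 and Angptl4 it was 0.26, -0.46 and -0.24 over 9 mice, and 0.06, -0.12 and 0.02 without treated OIR mouse 2. Tek and Ptprb also correlated with each other (0.94), with retinal ganglion cell markers (0.90 and 0.98) and with the 5 pigment epithelium markers (0.96 and 0.95), so that the likeness to endothelial markers was not particular to that cell type. These correlations describe 9 libraries in 3 groups that share the same depth scaling, and no test is given for them.

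Relative to the endothelial marker mean of the same mouse, the log2 CPM of Tie1 was -0.49, -0.33 and 0.03 in control mice, 1.06, 0.69 and 0.90 in OIR mice and 0.67, 1.13 and 1.11 in treated OIR mice. It was thus higher without overlap in both groups with OIR, as were 12.9% of all genes in OIR and 2.38% in treated OIR mice relative to control. For Ptprb the same difference was 1.03, 1.48 and 1.02 in control, 0.70, 0.76 and 0.92 in OIR and -0.17, 0.83 and 0.87 in treated OIR mice. Ptprb was lower without overlap in both, where 3.28% and 5.02% of all genes were. Tek ranged from -1.002 to -0.24 in control, from -1.09 to -0.69 in OIR and from -1.35 to -0.27 in treated OIR mice, and its groups overlapped. Of the 15 endothelial markers, all were tested and 0 passed in any comparison, with 7 higher and 8 lower in OIR than in control mice and a median log2 fold change of -0.17. In treated OIR compared with control mice the median was 0.27. The lowest log2 fold changes against control among these markers were those of Ly6c1 and Slco1a4. They were -2.38 and -2.11 in OIR mice, and -2.23 and -1.61 in treated OIR mice. Levels relative to the marker mean thus depend on which markers it includes.

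**Figure D4:**
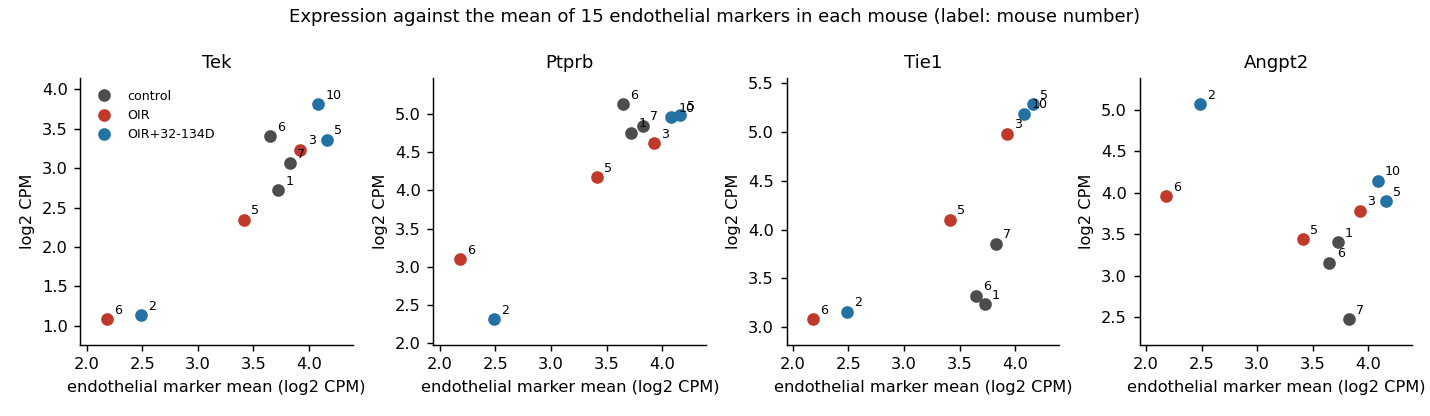
Log2 CPM of Tek, Ptprb, Tie1 and Angpt2 (vertical axes) against the mean log2 CPM of 15 endothelial markers (horizontal axis) in each mouse, colored by group and labelled with the mouse number. Tek and Ptprb rise with the marker mean (r = 0.96 and 0.92 over 9 mice). Tie1 exceeds the marker mean by more in each OIR and treated OIR mouse than in any control mouse. In OIR mouse 6 and treated OIR mouse 2, with low marker means, Tie1 itself lies below all control mice. The control mice span only marker means from 3.65 to 3.83. Angpt2 is highest in treated OIR mouse 2, where the marker mean is 2.49.

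Other cell types were measured beside these genes. Angpt1 correlated most with the 7 amacrine cell markers (0.79 over 9 mice, and 0.74 without treated OIR mouse 2), whose mean log2 CPM ran from 5.46 to 5.92 among control, from 3.16 to 3.94 among OIR and from 2.82 to 5.42 among treated OIR mice. Of these markers 7 of 7 were lower in OIR than in control mice (median log2 fold change -1.77), and 0 of 7 passed the threshold. The 10 pericyte and smooth muscle markers, which mark cells known to make angiopoietin-1, had a median log2 fold change of 0.01 between OIR and control mice with 0 of 10 past the threshold, and their correlation with Angpt1 was 0.22. The 6 retinal ganglion cell markers were all lower in OIR than in control mice, with a median of -1.98 and 0 past the threshold. Their correlation with Ptprb was the highest of any list and gene over 9 mice (0.981). Without treated OIR mouse 2 it was 0.957. Ptprb then correlated at 0.959 with the pigment epithelium markers and at 0.971 with the genes for adaptors and signalling below Tie2. Of 7 Müller glia markers, 6 were higher and 1 lower in OIR than in control mice (median log2 fold change 0.45). The 1 that passed the threshold was Slc1a3, the glutamate transporter gene (log2 fold change 0.95, standard error 0.16, edgeR adjusted p = 0.0447). This call was lost without each of control mice 1, 6 and 7, OIR mice 3, 5 and 6 and treated OIR mouse 5 (0.77 to 1.07, edgeR adjusted p up to 0.180). It was also lost with sex as a covariate or total-count scaling (edgeR adjusted p = 0.0769 and 0.0512). Without each of these 7 mice, and with sex as a covariate, 0 genes in all were called in this comparison, so the loss there is not particular to Slc1a3. The part of these cell types in the levels of the 6 genes was not tested.

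The genes with a pattern most like that of each member were sought by the Pearson correlation of log2 CPM over the 9 mice among genes with a mean log2 CPM of at least 1. For Tie1 these were Adgrl4 (r = 0.99), which encodes an adhesion receptor of endothelial cells, Notch4 (0.99) and Abcc9 (0.98), a channel subunit gene of pericytes. For Ptprb they were Abcb1a (0.99), the efflux transporter of the blood-retina barrier, Kcns2 (0.99), and Slc17a6 (0.99), the glutamate transporter gene of retinal ganglion cells. Tek was most like Brdt, Tmem178b and Kif26a (each 0.98). Angpt2 was most like Ripk2 (0.97), Fmnl2 (0.96) and Loxl2 (0.96), a lysyl oxidase of the extracellular matrix, whereas Angptl4 was most like Actg1 (0.93), Gm43625 (0.93) and Mrpl1 (0.92), and Angpt1 like Pla2g6 (0.93) and Bad (0.92). Among the 6 genes themselves, Angpt2 and Angptl4 correlated at 0.73, Tek and Tie1 at 0.68, and Angpt1 and Angpt2 at -0.50, and these were 0.62, 0.63 and -0.34 without treated OIR mouse 2.

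The wider pathway was followed in fixed lists. Of 21 tested genes for adaptors and signalling below Tie2, 10 were higher and 11 lower in OIR than in control mice, with a median change of -0.01 on the log2 scale. Of these, 1 passed the threshold. This was Foxo1, the transcription factor that Tie2 signalling holds out of the nucleus. Its mean was 4.51 ± 0.03 (SD, n = 3) in control and 5.14 ± 0.15 in OIR mice on the log2 CPM scale (log2 fold change 0.64, standard error 0.11, edgeR adjusted p = 0.0456). In treated OIR mice its mean was 5.03 ± 0.09 (log2 fold change 0.52 against control, edgeR adjusted p = 0.108), and treated OIR and OIR mice overlapped. Foxo1 lost the call without each of control mice 1, 6 and 7, OIR mice 3, 5 and 6 and treated OIR mouse 5, and with sex as a covariate or total-count scaling, with a log2 fold change between 0.55 and 0.70 throughout and an edgeR adjusted p of up to 0.175. The fits without each of these mice, and with sex as a covariate, called 0 genes in all between OIR and control mice, so the loss there is not particular to Foxo1. The most negative value in the list was that of Grb14, an adaptor of receptor tyrosine kinases, at -1.34 (standard error 0.51, edgeR adjusted p = 0.161). Of the 2 tested ligands and co-ligands of the Tie receptors outside the 6 genes, Angpt4 had a log2 fold change of -0.02 and Svep1 of -0.13 in OIR mice, and -0.86 and -0.84 in treated OIR compared with control mice, and neither passed.

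Among 9 tested genes known as FOXO1 targets in endothelium, 6 were higher and 3 lower in OIR than in control mice, with a median of 0.62 where that of all genes was 0.03. Of these, 1 passed the threshold. The gene was Apln, which encodes the peptide apelin and is also a known HIF target, and it rose in both comparisons with control (log2 fold change 2.91 in OIR mice, edgeR adjusted p = 0.0407, and 3.79 in treated OIR mice, edgeR adjusted p = 0.0490). The first of these calls was lost without each of the same 7 mice and with sex as a covariate (log2 fold change 2.58 to 3.12 without 1 mouse, edgeR adjusted p up to 0.163). In those fits 0 genes in all were called between OIR and control mice. The second call was lost without control mice 1, 6 or 7, OIR mice 3, 5 or 6, or treated OIR mouse 5 (3.46 to 4.002, edgeR adjusted p up to 0.230), and in 5 other alternatives. Of these fits without 1 mouse, that without OIR mouse 6 called 2 genes in all between treated OIR and control mice, and the rest called 0. The most negative log2 fold change in OIR mice was that of Klf2, a flow-responsive factor, at -0.61. The mean of these 9 genes on the log2 CPM scale ran from 3.57 to 4.09 among control, from 4.46 to 4.65 among OIR and from 4.57 to 5.02 among treated OIR mice, and its correlation with Angpt2, itself a known FOXO1 target and not in the list, was 0.93 over 9 mice.

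Of 8 tested junction and receptor partners of VE-PTP, 6 were higher and 2 lower in OIR than in control mice (median 0.20), and 1 passed the threshold. Kdr, which encodes VEGF receptor 2, rose from 6.78 ± 0.16 (SD, n = 3) in control to 7.88 ± 0.23 in OIR mice (log2 fold change 1.10, standard error 0.17, edgeR adjusted p = 0.0407), and was 7.46 ± 0.27 in treated OIR mice. The call of Kdr was lost without each of the 7 mice that ended the call of Foxo1 (0.97 to 1.20, edgeR adjusted p up to 0.163) and with sex as a covariate. In these fits 0 genes in all were called between OIR and control mice. Jup, the gene of plakoglobin, had the most negative value, -0.73. The 2 tested phosphatases of the same class were near 0, Ptprj at 0.18 and Ptpro at -0.16. For the 5 integrins that can bind angiopoietins the median was 0.40, from -0.10 for Itgb3 to 0.59 for Itgb5, and 0 passed.

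Around Angptl4, 0 of 3 tested angiopoietin-like genes, 0 of 7 tested genes of the lipase pathway and 0 of 10 tested PPAR targets and receptors passed in any comparison. In OIR compared with control mice their medians were -0.22, -0.01 and 0.28. Lpl, the lipase that ANGPTL4 inhibits, had a log2 fold change of -0.33, and Gpihbp1, which anchors the lipase to the capillary wall, had the highest value of its list at 1.13 (standard error 0.62, edgeR adjusted p = 0.300). Among the other lists, Angptl2 had 0.61, Angptl1 had -0.52 and Pdk4 had 0.52. In the direct comparison of treated OIR with OIR mice, 0 genes of any pathway list passed.

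**Figure D5:**
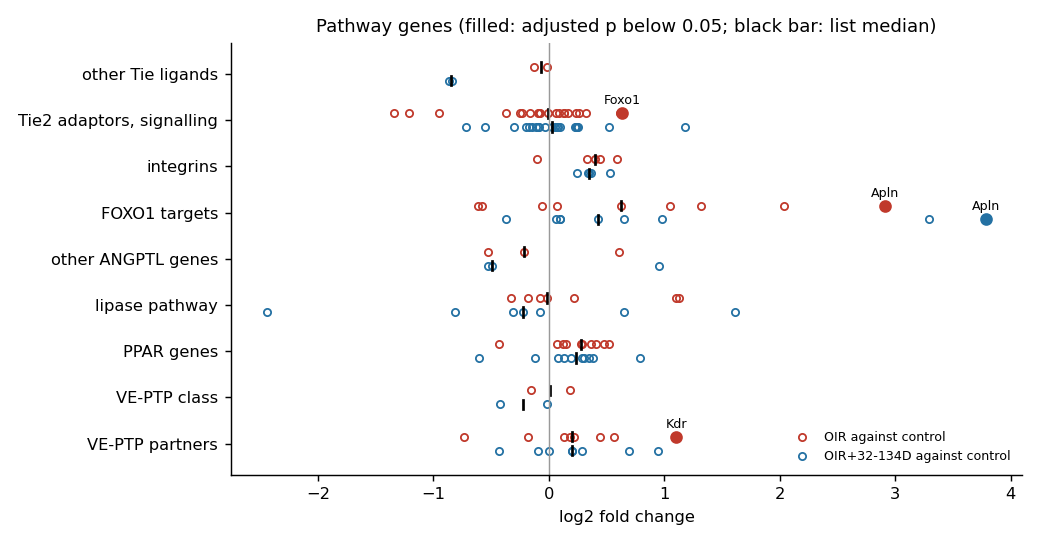
Log2 fold changes (horizontal axis) of the tested genes of 9 pathway lists in OIR compared with control mice and in treated OIR compared with control mice, with list medians as black bars and genes with an adjusted p below 0.05 filled and named. Foxo1, Apln and Kdr are filled for OIR mice and Apln alone for treated OIR mice.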

How the data were processed

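The table that the authors deposited holds raw, unnormalized counts for each gene and mouse, and gene lengths. The submitters' processing notes name CASAVA and HISAT. The counting tool, strand setting and the test the study used are not given in the sources used here. Positions on GRCm38 in GENCODE M21 are identical for 98.3% of the identifiers found in both, including 5 of the 6 genes. Angptl4 ends elsewhere, and its deposited position is given.

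All 9 mice were fitted together in edgeR 4.0.16 (R 4.3.3) with TMM factors, the default filter by group and the quasi-likelihood test, with Benjamini-Hochberg adjustment over 17540 genes. A gene was called at an adjusted p below 0.05. Log2 CPM used a prior count of 2. TPM and ratios per length used deposited lengths. DESeq2 1.42.0, limma 3.58.1 (voom with sample weights), other scalings and filters, sex as a covariate and leaving out each mouse were alternatives. The fits were tested on simulated data. Within each group, no library was a copy of another. Counting error is largest for Angpt1, with 11 to 103 counts per mouse.

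Named are the 6 genes, overlapping genes, the 3 most correlated genes for each, from each list every called gene, and from each pathway list the highest and lowest log2 fold change between OIR and control mice, except that some of the genes so chosen are not reported here. The genes and lists were chosen with earlier results of these data known. Sequences are from RefSeq (GRCm38), drawn with Python 3.11.15.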

Additional observations from a re-analysis of the deposited data

How the results depend on the processing

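Of 378 values of the 6 genes under alternatives, 366 kept their direction and side of the threshold, 7 passed it with DESeq2 or limma voom, and 5 turned sign, each by leaving out 1 mouse. In OIR compared with control mice 165 genes were called. The number was 1994 with DESeq2 on all 9 mice, 2677 with DESeq2 and 1771 with edgeR on the 2 groups, 2305 with limma voom, 37 with total-count scaling, 532 without a filter, 376 with at least 10 counts in every mouse, 53 with a limit on the fold change, 0 with sex as a covariate, and 0 to 2272 without 1 mouse, the last without treated OIR mouse 2. In treated OIR compared with control mice 4 genes were called, and 825, 369, 0 and 926 with these 4 tools in the same order. The number was 0 with size factors of the RLE kind, 18 without a filter, 0 with sex as a covariate, 0 with lens genes removed, and 0 to 6 without 1 mouse. Between treated OIR and OIR mice 0 were called by edgeR (823 at an unadjusted p below 0.05), and 33 and 75 with DESeq2 on 9 mice and on 2 groups, 1 without a filter and 1 with limma voom. Of the 6 genes, DESeq2 on 9 mice, DESeq2 on 2 groups and limma voom called 1, 1 and 1 in the first comparison and 1, 1 and 2 in the second. The cause of these differences was not tested.

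Sign changes without 1 mouse occurred in treated OIR compared with control mice for Tek (range -0.45 to 0.53, with -0.10 without control mouse 1, -0.06 without treated OIR mouse 5 and -0.45 without treated OIR mouse 10) and for Ptprb (-0.75 to 0.061, the last without treated OIR mouse 2). Between treated OIR and OIR mice they occurred for Angpt1 (-0.18 to 0.66, the first without treated OIR mouse 10), for the log2 ratio of Angpt2 to Angpt1 (range -0.30 to 0.89 without 1 mouse), for Angpt2 to Tek (-1.09 to 0.79, with -0.40 without OIR mouse 3, -0.12 without OIR mouse 5 and -1.09 without treated OIR mouse 2), and for Tie1 to Tek (-0.20 to 0.14, with 0.03 without OIR mouse 6 and 0.14 without treated OIR mouse 10). Ptprb to Tek turned in OIR compared with control mice, with a range of -0.24 to 0.095, 0.0052 without control mouse 1 and 0.095 without OIR mouse 3. The alternatives for the ratios of Tie1 to Tek and to Ptprb, of Ptprb to Tek, and for the called genes of the lists were chosen after seeing the data. No paired analysis was made, because the label numbers do not pair mice across groups. At a depth of 16028731 counts or more per mouse, counting error was largest for Angpt1 (11 to 103 counts per mouse) and not small for the lowest libraries of Tek (33 and 45 counts) and Angptl4 (37 counts).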
